A study of Thermothelomyces thermophilus ATCC 42464 with 4 samples.

Results

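In the RefSeq gene order of *M. thermophila*, 10 genes that follow each other without interruption were taken as a run, from *Mycth_2303695* to *Mycth_2303709*. They are 10 of the 8716 genes with a value in the file. They were chosen by their FPKM, which were lower in the libraries labelled ΔMtTrh-1 than in MtWT, and by their place, so every difference between the strains given here for them is a description of what chose them, with no test. RefSeq lists no other gene between them, and each had at least 1 FPKM on average. FPKM are fragments scaled to the length of the gene and to the mapped fragments of the library, so levels of different genes can be set side by side per length.

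RNA came from mycelia that grew on 2% glucose at 45°C for 16 h and were then held for 4 h in 2% Avicel, a crystalline cellulose. There were 2 libraries of MtWT, the wild type, and 2 of the strain that the labels give as an MtTrh-1 deletion and write ΔMtTrh-1. The study made its deletion strain from MtWT with CRISPR-Cas9 and a P*trpC*-*neo* cassette as the selectable marker. Both strains share the medium and the time. A shared parental background is read from the study's methods and is not in the labels. Whether a strain's libraries are separate cultures is not in the labels either. The study's methods describe independent biological replicates, but for a data set with 3 per condition under another accession, so the spread between the 2 libraries here may be technical.

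The gene that is read as the deleted one was not lower under the deletion label. *Mycth_90344*, the gene of the regulator MtTRC-1, stood at 13.29 and 14.47 FPKM in MtWT, and at 215.45 and 223.41 FPKM in those labelled ΔMtTrh-1. That MtTrh-1 is MtTRC-1 was inferred from the title of the data set and was not tested. The genes that this title calls Hac-1 and Cbh-1 were measured too. *Mycth_2310995* (*Mthac-1*) averaged 252 FPKM in MtWT and 87.3 FPKM under the label ΔMtTrh-1, and *Mycth_109566* (*Mtcbh-1*) averaged 14634 and 4146 FPKM. Both were thus lower where *Mycth_90344* was higher. The study reported both genes as lower in its MtTRC-1 deletion strain on Avicel, from another data set. Whether labels were exchanged here was not tested. All directions below are those of the labels, and no value can be given without the libraries in question, because they are both libraries of their strain. RefSeq places *Mycth_90344* on another chromosome than the run, so the run is no part of its neighbourhood.

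Filamentous fungi often carry the genes of a pathway side by side on a chromosome and transcribe them together. Secondary metabolite pathways are the best known case, where a core enzyme builds a scaffold, tailoring enzymes such as oxygenases modify it, and a transporter can move the product across a membrane. Of the 10 genes, only *Mycth_115957* carries a product description in the sources used here. It encodes a 2OG-Fe(II) oxygenase, a family that uses iron, oxygen and 2-oxoglutarate to oxidise its substrates. The other 9 are named by identifier only, and no pathway is assigned to the run.

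The run was strongly expressed in MtWT on Avicel and far less in the libraries labelled ΔMtTrh-1. The 10 transcripts together summed to 5485 and 5278 FPKM in the MtWT libraries and to 165 and 168 FPKM in those labelled ΔMtTrh-1. The sum was thus 32.3-fold lower, with 3.09% of the MtWT level left, or 3.01% to 3.17% over the 4 pairs of libraries. As a share of all FPKM in a library, the run took 0.728% ± 0.0163 (SD, n = 2) in MtWT and 0.0229% ± 0.000289 in the libraries labelled ΔMtTrh-1. For each of the 10 genes, both libraries labelled ΔMtTrh-1 lay below both MtWT libraries. Such a separation was seen for 39.0% of all genes tested, and all 10 genes were called lower by limma (adjusted p under 0.05 with a fold beyond −1 in log2), against 4.96% of the 7525 genes tested. The rule used this contrast, so nothing is read from these counts.

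**Figure D1:**
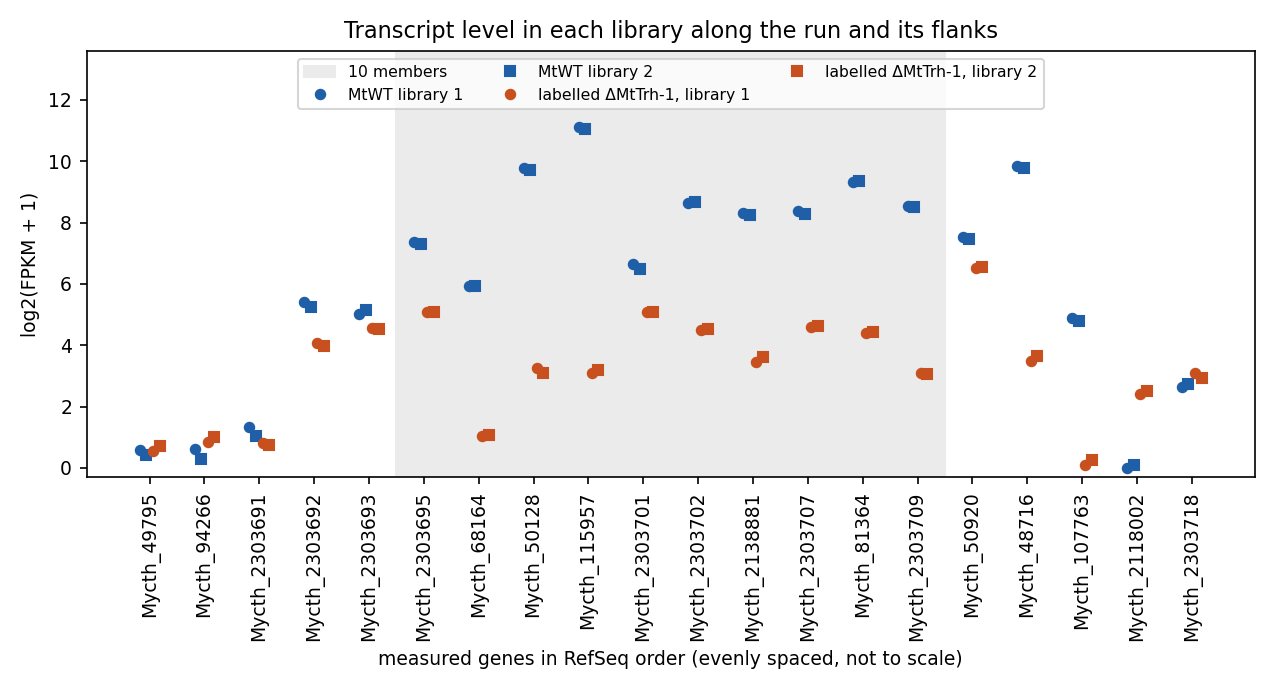
Level of each gene on the log2(FPKM + 1) scale in the 4 libraries (points), for the 10 genes of the run (grey band) and the 5 nearest measured genes on each side, evenly spaced in RefSeq order. The MtWT points of *Mycth_115957* stand highest, at 2232.05 and 2104.35 FPKM, while no gene of the run exceeds 33.17 FPKM in a library labelled ΔMtTrh-1.

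*Mycth_115957*, the 2OG-Fe(II) oxygenase gene, was both the most abundant transcript of the run in MtWT and the most lowered. It stood at 2232.05 and 2104.35 FPKM in MtWT, and only 7.49 and 8.14 FPKM were left in those labelled ΔMtTrh-1. The libraries of a strain lay close together and the strains far apart, 277-fold, with 0.36% of the MtWT level left. By abundance this transcript held places 40 and 47 among the 8716 genes in the MtWT libraries. In the libraries labelled ΔMtTrh-1 it held places 5705 and 5564. Its log2 fold change of −7.94 (standard error 0.056) was the largest fall of any gene tested on the log2(FPKM + 1) scale. The added 1 FPKM matters to this place, because *Mycth_2315024*, taken up below, was listed at 0 in both libraries labelled ΔMtTrh-1.

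Its neighbour *Mycth_50128* came next in both respects. It stood at 870.93 and 836.51 FPKM in MtWT and at 8.67 and 7.52 FPKM under the label ΔMtTrh-1. This left 0.948% of the MtWT level and gave a log2 fold change of −6.56. On the log2(FPKM + 1) scale this was the third largest fall of all genes tested. With 0.1 FPKM added instead, *Mycth_107763*, which lies beyond the run, fell further (−6.86) than *Mycth_50128* (−6.71). *Mycth_68164*, the next gene outward, was the least abundant of the run in every library. It stood at 59.93 and 59.77 FPKM in MtWT, and had 1.06 and 1.09 FPKM under the label ΔMtTrh-1, where it held places 7455 and 7418. With 1.8% left, it kept less of its MtWT level than every other member except *Mycth_115957* and *Mycth_50128*. Its log2 fold change of −4.87 is understated by the added 1 FPKM.

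The 5 genes from *Mycth_2303702* to *Mycth_2303709* formed a more even block on the other side of the oxygenase gene. *Mycth_2303702* stood at 400.43 and 402.8 FPKM in MtWT and at 21.71 and 21.91 FPKM under the label ΔMtTrh-1, with 5.43% left. *Mycth_2138881* stood at 318.36 and 299.67 FPKM against 9.86 and 11.33 FPKM, with 3.43% left. *Mycth_2303707* stood at 332.44 and 309.04 FPKM against 23.13 and 23.71 FPKM, with 7.3% left. The MtWT libraries of *Mycth_2138881* and *Mycth_2303707* overlapped in range, whereas their levels under the ΔMtTrh-1 label did not. *Mycth_81364* was the most abundant of this block in MtWT, at 633.54 and 659.84 FPKM, and had 19.9 and 20.74 FPKM under the label ΔMtTrh-1, with 3.14% left. *Mycth_2303709*, at the end of the run, stood at 375.14 and 360.19 FPKM against 7.57 and 7.31 FPKM, with 2.02% left. The log2 fold changes of this block were −4.14, −4.74, −3.72, −4.93 and −5.45 in gene order, so the last gene of the run was the most lowered of them.

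*Mycth_2303695* and *Mycth_2303701* kept far more of their MtWT level than the other 8 genes. *Mycth_2303695*, the first gene of the run, stood at 162.36 and 156.74 FPKM in MtWT and at 32.74 and 32.8 FPKM under the label ΔMtTrh-1, with 20.5% left and a log2 fold change of −2.25. *Mycth_2303701*, which directly follows the oxygenase gene, stood at 99.45 and 89.4 FPKM against 33.17 and 32.97 FPKM, with 35% left and a log2 fold change of −1.48. These were the 2 highest transcripts of the run under the ΔMtTrh-1 label, and among the 3 lowest in MtWT. *Mycth_2303701* was also the member nearest to the threshold of the rule.

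The fall did not grade smoothly along the run. From *Mycth_2303695* it deepened over *Mycth_68164* and *Mycth_50128* to *Mycth_115957*, with log2 fold changes of −2.25, −4.87, −6.56 and −7.94. It then dropped back to −1.48 at the adjacent *Mycth_2303701*, a step of 6.46 on the log2 scale between neighbours, and returned to −4.14 at *Mycth_2303702*. Steps between other neighbours were as small as 0.52. Over the 10 genes, Spearman's rho between the log2 fold change and the distance in genes from *Mycth_115957* was 0.12. This is a description over genes that share the same 4 libraries and were chosen together.

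**Figure D2:**
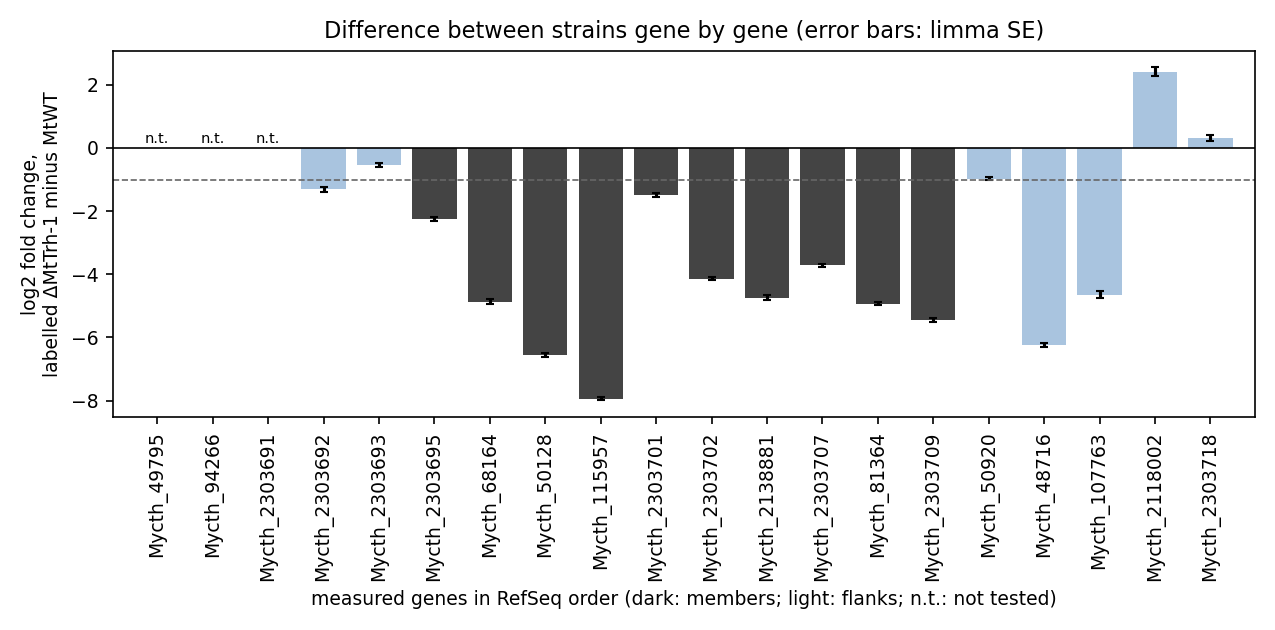
Log2 fold change of each gene (bars; libraries labelled ΔMtTrh-1 minus MtWT, with limma's standard error) in RefSeq order, dark for the run and light for its flanks; the dashed line marks −1 and n.t. marks genes too low to be tested. The bars reach −7.94 at *Mycth_115957*, shrink to −1.48 at the next gene, and beyond the run fall again at *Mycth_48716* and *Mycth_107763*.

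Levels left in the libraries labelled ΔMtTrh-1 were measurable for all 10 genes and lay below MtWT. Their median was 15.5 FPKM, beside 14.9 FPKM for all genes in the file, whereas in MtWT the median was 344 FPKM for the run and 14.1 FPKM for all genes. In MtWT, 8 of the 10 genes exceeded 100 FPKM in both libraries. The highest mean of the run was 36.2-fold above the lowest in MtWT and 30.8-fold above it in the libraries labelled ΔMtTrh-1, so the range was similar although its order was not. Spearman's rho between the means of the strains was −0.24 over the 10 genes, again as a description. Of the 10 genes, 6 kept under 5% of their MtWT level and 2 kept over 10%. Between libraries of the same strain, none of them differed by more than 0.18 on the log2 scale.

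The make-up of the run, which does not depend on how a library is scaled, changed with the strain. *Mycth_115957* gave 40.7% and 39.9% of the summed FPKM of the 10 genes in the MtWT libraries, but 4.53% and 4.86% in those labelled ΔMtTrh-1. *Mycth_50128* gave 15.9% and 15.8% in MtWT, and 5.25% and 4.49% in the libraries labelled ΔMtTrh-1. The reverse held for *Mycth_2303701*, with 1.81% and 1.69% in MtWT against 20.1% and 19.7%, and for *Mycth_2303695*, with 2.96% and 2.97% against 19.8% and 19.6%. *Mycth_81364* held nearly the same share in both strains, 11.6% and 12.5% in MtWT and 12% and 12.4% in the libraries labelled ΔMtTrh-1. Its own fall therefore ran parallel to that of the run as a whole.

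**Figure D3:**
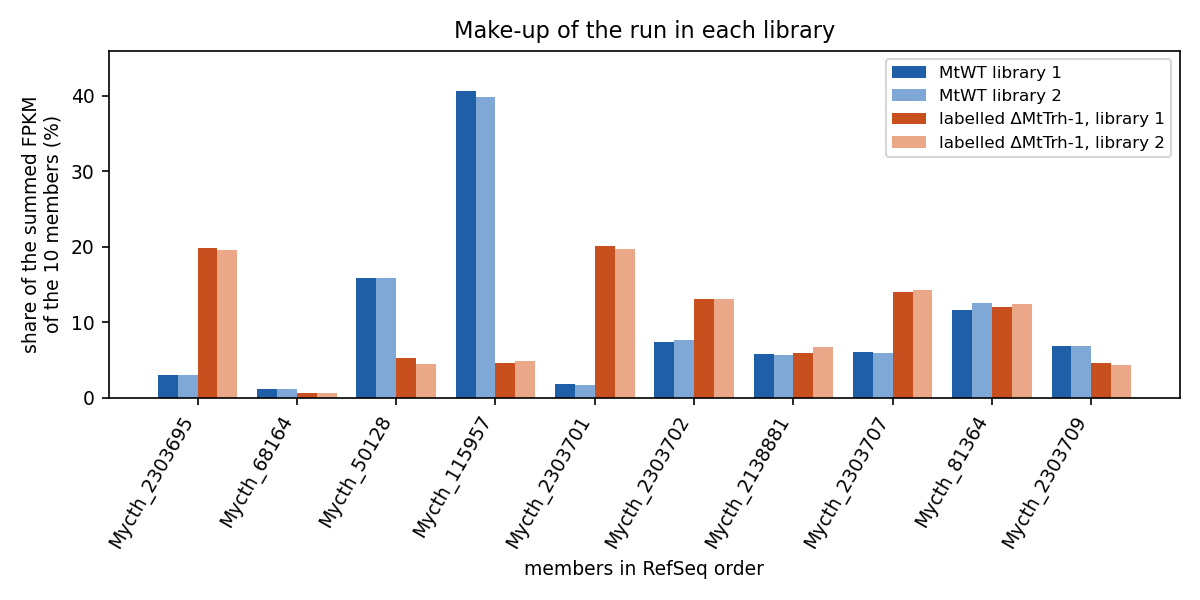
Share of each gene in the summed FPKM of the 10 genes (bars, in percent, from 0), for each of the 4 libraries. *Mycth_115957* leads in MtWT with 40.7% and 39.9%, while *Mycth_2303701* and *Mycth_2303695* lead in the libraries labelled ΔMtTrh-1 with 19.6% to 20.1%.

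The lowered stretch did not stop at *Mycth_2303709*. The next gene, *Mycth_50920*, stood at 185.18 and 176.29 FPKM in MtWT and at 90.63 and 91.82 FPKM under the label ΔMtTrh-1. Its log2 fold change of −0.98 fell just short of −1, which is what ended the run. It passed, at −1.01, without MtWT replicate 2 or with the libraries centred on their median. Beyond it, *Mycth_48716* stood at 918.35 and 875.71 FPKM in MtWT and at 10.21 and 11.66 FPKM under the label ΔMtTrh-1, a log2 fold change of −6.24 with 1.22% left. It was more abundant in MtWT than 9 of the 10 genes of the run. On the log2(FPKM + 1) scale its fall was the fourth largest of all genes tested. *Mycth_107763*, described as an MFS general substrate transporter, a large class of membrane carriers of small molecules, followed at 28.39 and 26.5 FPKM against 0.08 and 0.21 FPKM. From *Mycth_2303695* to this transporter gene, 12 of 13 consecutive genes were below −1 on the log2 scale, and 10 were below −3. Of all genes tested, 23 genes, or 0.306%, were below −3, and these 10 are among them. However, 8 of these 10 belong to the run, whose genes were chosen by this same contrast. The stretch of 13 genes was set after the data were seen, and its last gene is itself lowered. Nothing is therefore read from setting these 10 beside the share of all genes. With *Mycth_50920* included, the 13 genes took 0.892% and 0.863% of all FPKM in MtWT and 0.0365% and 0.0374% in the libraries labelled ΔMtTrh-1.

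Outside these genes, 2 more of the nearest neighbours were called, in opposite directions. On the side of the transporter gene, *Mycth_2118002*, of the major facilitator superfamily, went the other way, from 0 and 0.07 FPKM in MtWT to 4.31 and 4.73 FPKM in the libraries labelled ΔMtTrh-1. *Mycth_2303718*, after it, stood at 5.24 and 5.64 FPKM against 7.5 and 6.64 FPKM and was not called. On the side of *Mycth_2303695*, the adjacent *Mycth_2303693* stood at 31.42 and 34.42 FPKM in MtWT against 22.58 and 22.11 FPKM, a log2 fold change of −0.54 that was not called. *Mycth_2303692*, the next, was called lower with −1.31, from 41.53 and 36.85 FPKM to 15.75 and 14.59 FPKM. The 3 genes after it, *Mycth_2303691*, *Mycth_94266* and *Mycth_49795*, lay at or under 1.5 FPKM in every library and were not tested. Of the 10 measured genes on that side, *Mycth_2303692* was the only gene called, with 3 not tested. Of the 10 on the other side, *Mycth_48716* and *Mycth_107763* were lower and *Mycth_2118002* was higher, with 3 not tested.

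**Figure D4:**
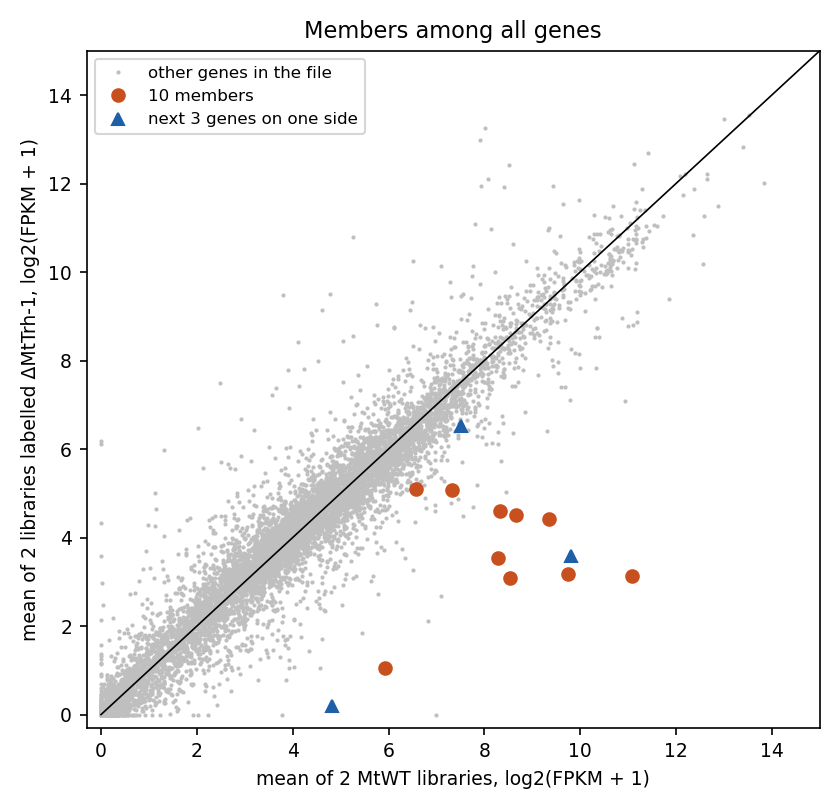
Mean of the 2 libraries labelled ΔMtTrh-1 against the mean of the 2 MtWT libraries on the log2(FPKM + 1) scale, for all genes in the file (grey), the 10 genes of the run (circles) and the next 3 genes, *Mycth_50920*, *Mycth_48716* and *Mycth_107763* (triangles). All 10 circles lie below the line of equal levels, with a median log2 fold change of −4.81 against 0.03 for all genes tested.

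No other unbroken run of lowered genes in the genome was as long. Among expressed neighbours with a log2 fold change below −1, there were 10 other runs of 3 or more genes, and the longest held 4. That run, from *Mycth_2308108* to *Mycth_2308118*, passed over genes under 1 FPKM, and its fall was shallower, with log2 fold changes of −1.49, −1.06, −1.18 and −1.27. Among genes higher in the libraries labelled ΔMtTrh-1, the longest unbroken run held 5. With a threshold of −2 instead, *Mycth_2303701* split the run, the longer piece held the 5 genes from *Mycth_2303702* to *Mycth_2303709*, and the longest other run held 3. The 10 genes made up 2.68% of the 373 genes called lower. Run lengths are given as a description, since the members were picked for being a run.

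Outside the run, 2 genes with at least 10 FPKM in MtWT had a log2 fold change as low as the median of the 10 genes, −4.81. These were the neighbouring *Mycth_48716* and *Mycth_2315024*, which lies far from the run on the same chromosome. *Mycth_2315024* stood at 129.43 and 121.84 FPKM in MtWT and was listed at 0 in both libraries labelled ΔMtTrh-1. No fold is given for it, since a listed 0 can be a failed estimate. The likeness is that of log2 fold changes over 4 libraries, and the count depends on the added 1 FPKM. *Mycth_107763* missed the cut at −4.64, although 0.528% of its MtWT level was left. With 0.1 FPKM added instead, its log2 fold change was −6.86.

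Most described genes of families that are common in fungal biosynthetic gene clusters were not called, though the called share differed between lists. Descriptions were at hand for only 1490 genes of the file. The lists of core enzymes, tailoring enzymes and transporters were made by words in these descriptions. Whether a listed gene has that role or lies in a biosynthetic gene cluster was not tested. Of 5 described dioxygenase and 2OG oxygenase genes tested, *Mycth_115957* was lower. *Mycth_2060338*, a TauD/TfdA family dioxygenase, was higher but low, at 0.18 and 0.49 FPKM in MtWT and 2.05 and 1.73 FPKM in the libraries labelled ΔMtTrh-1. The other 3 were not called. Of 30 described tailoring enzymes, 6 were lower and 1 was higher. The list holds these 5 genes with cytochromes P450, methyltransferases and FAD enzymes. Among the 6 is *Mycth_115957*, which the rule chose. The P450 gene *Mycth_112051* (log2 fold change −2.09) and the methyltransferase gene *Mycth_107976* (−1.37) are among them too. Of 11 described core enzymes, such as AMP-dependent synthetases, terpenoid synthases and carriers of a phosphopantetheine site, none was called lower in limma and 1 was called higher. The gene called higher was *Mycth_108317*, with a log2 fold change of 3.73. Before adjustment and without a fold threshold, 5 lower and 3 higher genes of this list had limma p under 0.05. Small p was common in these data. Of all 7525 genes tested, 4926 passed limma's adjusted p under 0.05 without a fold threshold, 2356 of them lower. Nothing is therefore read from the unadjusted counts. Of 17 genes described as major facilitator superfamily transporters, 1 was lower (*Mycth_108475*, −1.32) and 3 were higher, led by *Mycth_2059428* with 3.88. *Mycth_107763* is described in other words and was not counted here. Beside these counts, 4.96% of all genes tested were lower and 5.30% higher, and the median log2 fold changes were −0.10 for core enzymes, −0.08 for tailoring enzymes and 0.07 for transporters against 0.03 for all genes.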

How the data were processed

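The authors deposited 1 FPKM value per gene and library for 8716 genes in 4 RNA-seq libraries. HISAT and Bowtie2 appear in the submitters' processing notes. The study's methods describe TopHat, mapping to predicted transcripts of the genome and HTSeq-count of reads unique to a gene, for RPKM of a data set under another accession. These differ from the notes, so they were not taken as the source of the FPKM, whose quantifier, build and annotation are not given for these files. Read depth is unknown, so no counting interval is given, and how reads shared between similar genes were counted for these FPKM is not known. FPKM sums ranged from 725984 to 741923 per library.

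log2(FPKM + 1) was compared with limma 3.58.1 (R 4.3.3) with an intensity trend, without covariates, over the 7525 genes that averaged 1 FPKM or more. Calls required a log2 fold change beyond 1 and a Benjamini-Hochberg adjusted p under 0.05, as in the study's methods. The script was tested on simulated data. An exact permutation test of 2 libraries against 2 reaches p = 0.33 at the lowest and was not run. Remaining levels are ratios of mean FPKM without the added 1. RefSeq's table of assembly ASM22609v1 held 8681 of the identifiers and was used only for gene order. Product descriptions came from the part of the study's supplementary gene table at hand, whose expression values and comparisons were not used.

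The members, gene lists and naming rule were chosen with earlier results of these data known. Named genes are the members, the 5 nearest measured genes on each side, *Mycth_90344*, up to 5 genes as low as the members' median, and up to 2 called genes per list at 10 FPKM or more. The dioxygenase *Mycth_2060338* and the run from *Mycth_2308108* were named after their values were seen. Alternatives covered the pseudocount, filter, scaling, variance model, thresholds, replicate block and each library left out. Plots were drawn with matplotlib 3.10.9.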

Additional observations from a re-analysis of the deposited data

How the results depend on the processing

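The 10 genes of the run were called lower under each refit with other pseudocounts, filters, scalings, variance model or a replicate block, and 9 of them with a log2 fold change beyond 2, where *Mycth_2303701* dropped out. For *Mycth_68164*, the least abundant, the log2 fold change ranged from −5.67 to −3.42 with the pseudocount, and for *Mycth_115957* from −8.10 to −7.41. The same refits were added for the flanking genes after the data were seen. *Mycth_50920* passed the threshold at −1.01 with libraries centred on the median, and also at −1.01 without MtWT replicate 2, which would join the run to *Mycth_48716* and *Mycth_107763*. For *Mycth_107763* the value ranged from −6.86 to −2.66 with the pseudocount.

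Over all genes, 772 were called and 373 of them were lower. These counts were 493 and 240 with a pseudocount of 5, 180 and 91 with a log2 fold change beyond 2, and 4926 and 2356 with no fold threshold. With each library left out they ranged from 756 to 789 and from 367 to 389, with all 10 genes of the run among them. Each of these fits has a strain with 1 library, which is assumed to vary like the other strain, so they say little about stability. A replicate block gave 773 genes called, 373 of them lower, with all 10 genes of the run. Same-numbered libraries did not deviate together (r = −0.02 across genes), and the labels give no shared source, so the numbers were not taken as pairs.

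The level left of the summed FPKM, 3.09%, was 3.03% to 3.15% with each library left out, and 4.14% over the 13 genes up to *Mycth_107763*, an alternative added after the data were seen. With the 50 most abundant genes kept out of the total (any gene of the run retained), the share of the run was 0.954% in MtWT and 0.0304% in the libraries labelled ΔMtTrh-1. With a threshold of −2 on the log2 scale the longest unbroken piece of the run held 5 genes. When runs could pass over 1 gene, as added later, it held 13 lowered genes from *Mycth_2303692* to *Mycth_107763*, and the longest other run still held 4. No member was under 10 FPKM in MtWT, so leaving out such members left the profile as it was. Read depth is unknown, which limits what can be said of genes under 1 FPKM.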
